A study of Mus musculus with 9 samples.

Results

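The genes described here encode 10 surface antigens of mouse blood progenitors: Kit, Cd34, Fcgr3, Fcgr2b, Ly6a, Il7r, Slamf1, Cd48, Eng and Procr. They were chosen by name, as antigens that gate megakaryocyte-erythroid progenitors (MEPs) or divide pre-MegE, pre-CFU-E and stem cells. Each matched 1 of the 35275 gene identifiers in the count table. These members and the gene lists below were chosen with earlier results of these data known. Their counts beside the share of all genes are therefore descriptions and no test of an excess. All MEPs came from mouse bone marrow and were sorted as lineage-negative, c-kit-positive, CD34-negative cells with low FcγRII/III, so Kit, CD34 and the Fc receptors were selected on as proteins in every group. The labels name neither Sca-1 (Ly6a) nor the IL-7 receptor in this gate, while the study places MEPs within a progenitor pool defined as negative for Sca-1. The HS3A8-high group held the 50% of MEPs that bound most HS3A8, a single-chain antibody fragment (scFv) against heparan sulfate (HS), and the HS3A8-low group the 50% that bound least. For the MPB49 control group, MEPs went through a mock sort with the scFv MPB49, which lacks HS binding, and were not divided. Each group had 3 libraries of bulk RNA-seq, from 25000 cells each, of mice aged 6 to 12 weeks that were matched for age and sex. No transgene or treatment separated the groups, and the strain of these mice was not given singly in the sources used here. Both fractions were drawn from one gate and divided by HS3A8 binding, so a difference between them goes with that binding. The control was stained with another scFv. In a difference from the control, the stain and the division of the cells cannot be told apart.

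Lineage-negative, c-kit-positive marrow is divided by its surface antigens. CD34 and FcγRII/III split it into common myeloid progenitors, granulocyte-monocyte progenitors and MEPs, and MEPs are the cells low for both. A later scheme uses CD150 (Slamf1), CD105 (endoglin, Eng) and CD41 (Itga2b) to divide the same cells further. There, pre-MegE cells are CD150-positive and CD105-low, pre-CFU-E cells carry both antigens, and CFU-E cells have lost CD150 and kept CD105. Stem cells carry CD150, Sca-1 and EPCR (Procr) and lack CD48.

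Total counts were between 11781637 and 15850037. A count of 0 allows for 3 counts in a library, or 0.189 to 0.255 CPM, the unit of a gene's counts relative to its library total. Such limits cover counting error only. Levels are CPM scaled by TMM over all 9 libraries. Of 8 genes read to check the labelled cell type, Car1, an erythroid carbonic anhydrase, was at 5298 to 5714 CPM in HS3A8-high, 4030 to 4491 CPM in HS3A8-low and 5073 to 5302 CPM in the control. Between the fractions, 6 of the 8 had a higher fitted level in HS3A8-high. The megakaryocyte genes Itga2b and Pf4 went the other way, with fitted levels in HS3A8-low 16.1 and 19.6 times those in HS3A8-high. Certain libraries stood apart. The summed level of 15 granulocyte-monocyte genes was 1851 CPM in HS3A8-high replicate 3 and 4757 CPM in HS3A8-low replicate 3, and at most 302 CPM in the other 7 libraries. Control replicate 1 differed most within its group (chi-square of the counts over its degrees of freedom 196 and 150 against the other control libraries, which gave 9.61 between them).

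In HS3A8-high MEPs the mean RNA level of 8 members was below that in HS3A8-low MEPs, and that of Kit and Eng was above it. Cd34, Ly6a, Il7r and Slamf1 had fitted levels in HS3A8-low that were 8.66 to 11.0 times those in HS3A8-high, and Cd48 2.29 times. The fitted levels of Kit and Eng were 1.16 and 1.13 times higher in HS3A8-high. The main test was edgeR's quasi-likelihood test, adjusted by Benjamini and Hochberg's method over all 11791 genes tested. It leaves out the pairing of the fractions by replicate number. In it, 0 of the 9 members tested passed at an adjusted p under 0.05, against 3.82% of all genes. An unadjusted p under 0.05 was reached by 5 members (Cd34, Ly6a, Il7r, Slamf1 and Cd48), all with the higher level in HS3A8-low, a direction in which 12.7% of all genes did so. DESeq2 passed the same 5 members at an adjusted p under 0.05, against 6.67% of all genes in that direction. For Fcgr3 it gave no adjusted p, here or against the control. Same-numbered libraries of the fractions deviated together from their group means, and with the replicate number as a block edgeR passed 6 members as higher in HS3A8-low, against 8.27% of all genes. These were Cd34, Fcgr3, Fcgr2b, Il7r, Slamf1 and Cd48. Without replicate 3 of both fractions, a setting chosen after seeing the data, 2 members passed (Cd34 and Cd48), against 6.01% of all genes in that direction. The 3 libraries of each group did not overlap for 5 of the 9 tested members, all higher in HS3A8-low, against 14.5% of all genes. In bulk libraries, fewer cells of a type and less RNA per cell cannot be told apart.

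**Figure D1:**
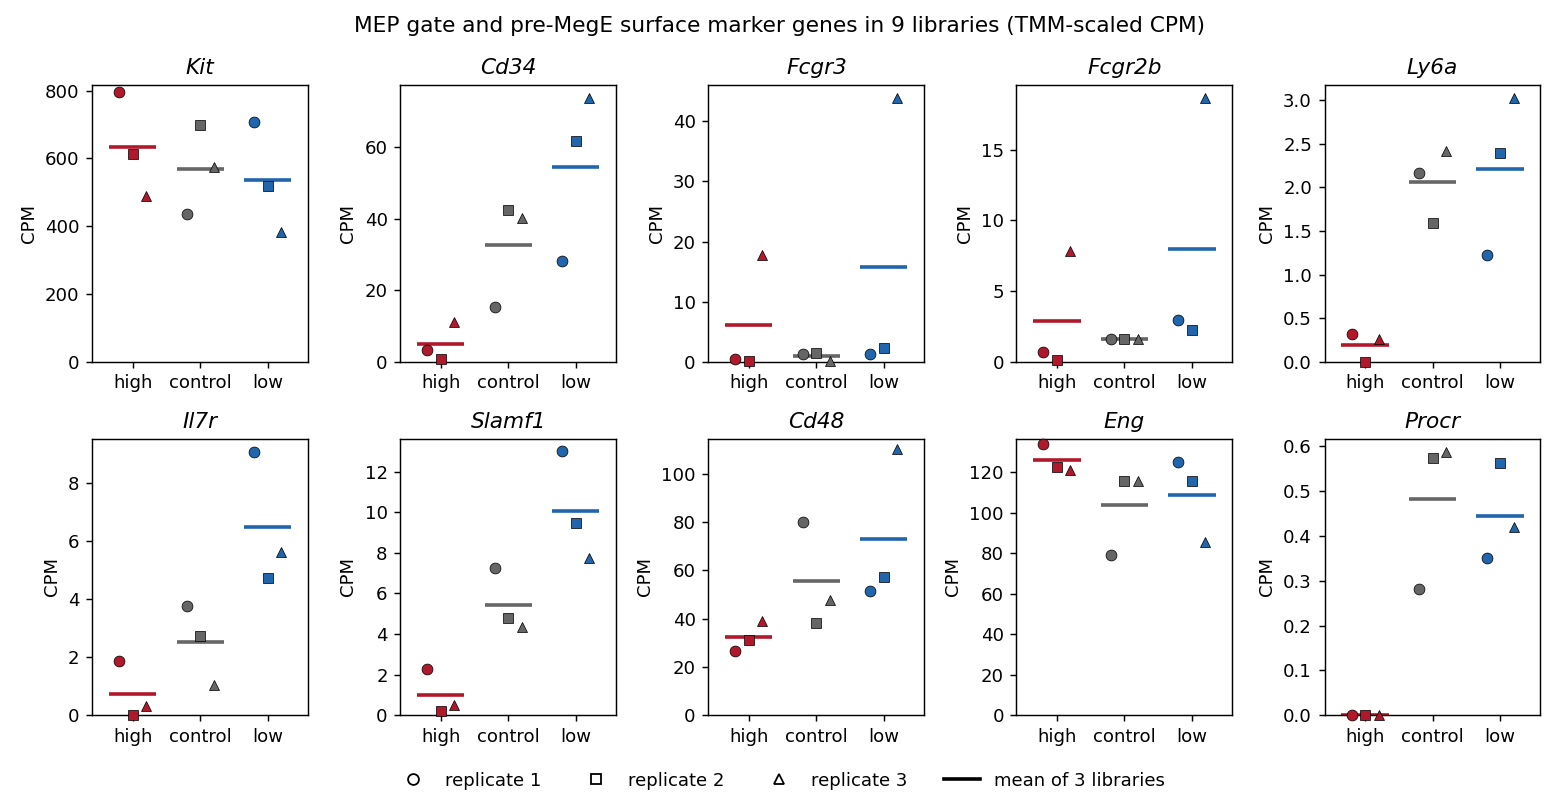
TMM-scaled CPM (y axis, linear from 0, a scale of its own in each panel) of the 10 marker genes in HS3A8-high, MPB49 control and HS3A8-low MEPs (x axis). Each point is 1 library, its shape is the replicate number and the line is the mean of 3 libraries. Cd34, Ly6a, Slamf1 and Procr are below both other groups in every HS3A8-high library, and replicate 3 carries most of the Fcgr3 and Fcgr2b RNA in both fractions.

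The plot of CPM by library shows each gene on its own scale. Kit (chr5:75574916-75656722, plus strand, GRCm38) encodes the receptor tyrosine kinase for stem cell factor, the antigen on which all these cells were selected. It was at 796, 614 and 491 CPM in HS3A8-high replicates 1, 2 and 3, at 707, 519 and 382 CPM in HS3A8-low and at 437, 698 and 576 CPM in the control. The groups overlapped, and within each fraction replicate 1 was highest and replicate 3 lowest. The log2 fold change of HS3A8-high over HS3A8-low was 0.22 (SE 0.26, 95% interval -0.40 to 0.83, adjusted p = 0.706 by edgeR). Between libraries of the same number the HS3A8-low level of Kit was 0.887, 0.844 and 0.779 times the HS3A8-high level. With the replicate block the SE was 0.06 and the adjusted p 0.0652. The ligand gene, Kitl, was at 0 in 8 of 9 libraries and at 0.132 CPM in HS3A8-high replicate 3.

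Cd34 (chr1:194938819-194961279, plus strand) encodes a sialomucin of early progenitors and endothelium, and its protein was absent from the cell surface by the gate. Its RNA was at 3.26, 0.827 and 11.0 CPM in HS3A8-high, at 28.1, 61.6 and 73.7 CPM in HS3A8-low and at 15.3, 42.3 and 40.2 CPM in the control. Every HS3A8-high library was below every other library, while HS3A8-low and the control overlapped. HS3A8-high over HS3A8-low gave a log2 fold change of -3.45 (SE 0.82, 95% interval -5.39 to -1.52). It missed the threshold in the main test (adjusted p = 0.0701 by edgeR) and passed it with the replicate block (-3.66, adjusted p = 0.0178) and with DESeq2 (adjusted p = 0.00889). The ratio of HS3A8-low to HS3A8-high was 8.60, 74.4 and 6.71 in replicates 1, 2 and 3. Without replicate 3 of both fractions it was -4.42 and passed (adjusted p = 0.0159 by edgeR). Cd34 shares 2.03% of its exonic bases with Gm16897 on the other strand.

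Ly6a (chr15:74994877-74998031, minus strand) encodes Sca-1, a lipid-anchored antigen of stem cells and early multipotent progenitors. It had 5, 0 and 4 reads in HS3A8-high, or 0.314, 0 and 0.265 CPM. It was at 1.23, 2.39 and 3.02 CPM in HS3A8-low and at 2.16, 1.59 and 2.42 CPM in the control. The HS3A8-high libraries sat near the limit that a count of 0 allows, and the other groups overlapped. For HS3A8-high over HS3A8-low the log2 fold change was -3.44 (SE 0.83, adjusted p = 0.0737 by edgeR, 0.0560 with the replicate block, 0.00488 by DESeq2). Of the 100-base windows of Ly6a transcripts, 1.45% are also in Ly6c1, a gene that was at 0.265 CPM or less in every library.

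Cells other than MEPs that carry CD34 or Sca-1 include endothelium. The summed level of 8 endothelial and stromal genes was 1.32 to 4.96 CPM in HS3A8-high, 10.8 to 20.1 CPM in HS3A8-low and 6.97 to 8.18 CPM in the control. Both members of the list that were tested, Tek and Emcn, passed as higher in HS3A8-low, against 3.21% of all genes. Emcn averaged only 0.451 CPM over the 9 libraries, so it could enter the test only through libraries where it was high. Its pass therefore carries no weight. With the replicate block Tek passed (adjusted p = 0.00324 by edgeR) and Emcn did not (adjusted p = 0.0531). Tek, an angiopoietin receptor gene, was at 1.12 to 2.13 CPM in HS3A8-high, 9.83 to 17.2 CPM in HS3A8-low and 6.38 to 7.62 CPM in the control. It made up most of the sum in HS3A8-low and the control. Of the 8 genes, 2 had no read in HS3A8-high, 3 none in HS3A8-low and 4 none in the control. Cdh5, which encodes VE-cadherin, was at 0 in all 9 libraries. The part of endothelial cells in the Cd34 and Ly6a values was not tested.

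The 300 bases around the start sites of Cd34 and Slamf1 are shown because these genes had the largest fitted differences in RNA between the fractions among tested members with a promoter in the RefSeq table (GRCm38.p6, 9 of 10 members matched). Capitals mark letters matching 4 motifs read on both strands, namely AGATAA and likewise TGATAA for the GATA motif, AGGAAG for the ETS motif, TGTGGT for the RUNX motif and CAGCTG for the E-box. None of these contains another. The windows are chr1:194938571-194938870 for Cd34 and chr1:171766882-171767181 for Slamf1, both on the plus strand, with 250 bases before the start and 50 after it.
Cd34: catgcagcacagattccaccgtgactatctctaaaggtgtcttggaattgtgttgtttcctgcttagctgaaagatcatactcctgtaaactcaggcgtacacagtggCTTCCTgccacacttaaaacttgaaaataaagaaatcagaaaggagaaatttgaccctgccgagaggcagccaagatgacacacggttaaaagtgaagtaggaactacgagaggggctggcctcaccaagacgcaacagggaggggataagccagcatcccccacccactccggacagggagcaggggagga
Slamf1: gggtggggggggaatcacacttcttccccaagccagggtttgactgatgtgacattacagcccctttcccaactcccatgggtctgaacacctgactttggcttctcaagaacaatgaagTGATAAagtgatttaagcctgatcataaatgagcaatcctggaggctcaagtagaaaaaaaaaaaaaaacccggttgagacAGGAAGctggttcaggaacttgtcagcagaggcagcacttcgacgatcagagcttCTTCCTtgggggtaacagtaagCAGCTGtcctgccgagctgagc
The Slamf1 window holds a GATA match at -130, ETS matches at -49 and +7 and an E-box match at +29 from its start site, and the Cd34 window an ETS match at -142. Slamf1 was the only 1 of the 9 members with a GATA match, against 18.6% of all 32851 promoters. ETS letters were in 7 of the 9 (all but Fcgr2b and Procr), Kit and Eng included, against 35.4% of all promoters. RUNX letters were in Il7r and Cd48 (16.8% of all promoters) and E-box letters in Slamf1 and Procr (16.3%).

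Slamf1 (chr1:171767127-171801184, plus strand) encodes CD150, the SLAM receptor that marks stem cells, pre-MegE and pre-CFU-E cells. It was at 2.26, 0.226 and 0.529 CPM in HS3A8-high, at 13.0, 9.49 and 7.73 CPM in HS3A8-low and at 7.24, 4.78 and 4.33 CPM in the control. The 3 groups did not overlap at all, and the control lay between the fractions. The fitted log2 ratio of HS3A8-high to HS3A8-low was -3.32 (SE 0.76, 95% interval -5.11 to -1.53, adjusted p = 0.0637 by edgeR). It passed with the replicate block (-3.61, adjusted p = 0.0157), with DESeq2 (adjusted p = 5.93e-05) and with all 9 libraries in 1 edgeR fit (adjusted p = 0.0427). HS3A8-high replicate 2 held 3 reads of the gene.

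Cd48 (chr1:171682009-171705258, plus strand) lies beside Slamf1 and encodes CD48, a lipid-anchored SLAM antigen that stem cells lack and most committed progenitors carry. It was at 26.7, 31.4 and 39.1 CPM in HS3A8-high, at 51.5, 57.1 and 110 CPM in HS3A8-low and at 80.2, 38.2 and 47.8 CPM in the control. All HS3A8-high libraries were below all HS3A8-low libraries, and the control overlapped both. The log2 fold change of HS3A8-high over HS3A8-low was -1.20 (SE 0.31, adjusted p = 0.0880 by edgeR, 0.0113 with the replicate block, 0.00256 by DESeq2). The ratio of HS3A8-low to HS3A8-high was 1.93, 1.82 and 2.82 in replicates 1, 2 and 3. Without replicate 3 of both fractions the log2 fold change was -0.91 and passed (adjusted p = 0.0353 by edgeR).

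Il7r (chr15:9505788-9530176, minus strand) encodes the IL-7 receptor alpha chain of lymphoid progenitors and T cells. It was at 1.88, 0 and 0.331 CPM in HS3A8-high, at 9.07, 4.71 and 5.63 CPM in HS3A8-low and at 3.76, 2.74 and 1.03 CPM in the control. HS3A8-low was above both other groups in every library. HS3A8-high over HS3A8-low gave a log2 fold change of -3.11 (SE 1.05, adjusted p = 0.160 by edgeR), and it passed with the replicate block (-3.62, adjusted p = 0.0366) and with DESeq2 (adjusted p = 0.0156). Without replicate 3 of both fractions the adjusted p was 0.206. The summed level of 9 T and NK cell genes was 4.51 to 42.1 CPM in HS3A8-high, 166 to 182 CPM in HS3A8-low and 46.9 to 114 CPM in the control. Of the 9, 2 passed as higher in HS3A8-low (Trbc1 and Nkg7), against 3.21% of all genes. Trbc1, a T cell receptor constant region gene, was at 0.150 to 0.794 CPM in HS3A8-high, 21.8 to 24.5 CPM in HS3A8-low and 3.81 to 24.5 CPM in the control. The CD3 genes Cd3d, Cd3e and Cd3g reached at most 4.20, 1.69 and 1.81 CPM. The sum of 7 B cell genes was 1.35 to 5.22, 10.1 to 13.6 and 4.14 to 10.4 CPM in HS3A8-high, HS3A8-low and control, with Pax5 at 0 in all libraries. The part of lymphoid cells in the Il7r values was not tested.

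Fcgr3 and Fcgr2b encode FcγRIII, an activating receptor for IgG that signals through the Fcer1g chain, and FcγRIIB, its inhibitory counterpart. A gate written FcγRII/III reads both proteins, and the genes are close in sequence. The longest exact run that their reference transcripts share is 129 bases, inside the coding sequence of both, and is shown because reads within it cannot be assigned to one gene. Capitals mark the shared run and lower case 15 bases on either side.
Fcgr2b: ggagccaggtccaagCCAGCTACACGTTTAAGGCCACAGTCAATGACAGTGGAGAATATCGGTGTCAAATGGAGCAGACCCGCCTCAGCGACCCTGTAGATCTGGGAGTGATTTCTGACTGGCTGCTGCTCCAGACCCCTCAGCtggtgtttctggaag
Fcgr3: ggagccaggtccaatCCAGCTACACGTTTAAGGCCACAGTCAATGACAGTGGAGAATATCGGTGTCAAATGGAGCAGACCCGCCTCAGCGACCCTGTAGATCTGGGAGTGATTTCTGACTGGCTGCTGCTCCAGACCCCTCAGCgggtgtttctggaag
Of the 100-base windows of Fcgr3 transcripts, 2.54% are also in Fcgr2b, so most of each transcript is distinct at that length.

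Fcgr3 (chr1:171051174-171064935, minus strand) was at 0.439, 0.150 and 17.8 CPM in HS3A8-high, at 1.29, 2.25 and 43.9 CPM in HS3A8-low and at 1.32, 1.40 and 0.147 CPM in the control. Fcgr2b (chr1:170958617-170976547, minus strand) was at 0.690, 0.150 and 7.80 CPM in HS3A8-high, at 2.92, 2.25 and 18.7 CPM in HS3A8-low and at 1.60, 1.59 and 1.61 CPM in the control. Both genes were highest in replicate 3 of both fractions, and the fractions overlapped. For HS3A8-high over HS3A8-low the log2 fold change was -1.39 for Fcgr3 (SE 1.78, adjusted p = 0.726 by edgeR) and -1.48 for Fcgr2b (SE 1.34, adjusted p = 0.602). With the replicate block both passed as higher in HS3A8-low (Fcgr3 -1.77, adjusted p = 0.0453, and Fcgr2b -2.00, adjusted p = 0.0464). Without HS3A8-low replicate 3 the estimates turned to 1.76 and 0.12. Without replicate 3 of both fractions they were -2.51 for Fcgr3 (adjusted p = 0.109 by edgeR) and -2.57 for Fcgr2b (adjusted p = 0.0990).

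**Figure D2:**
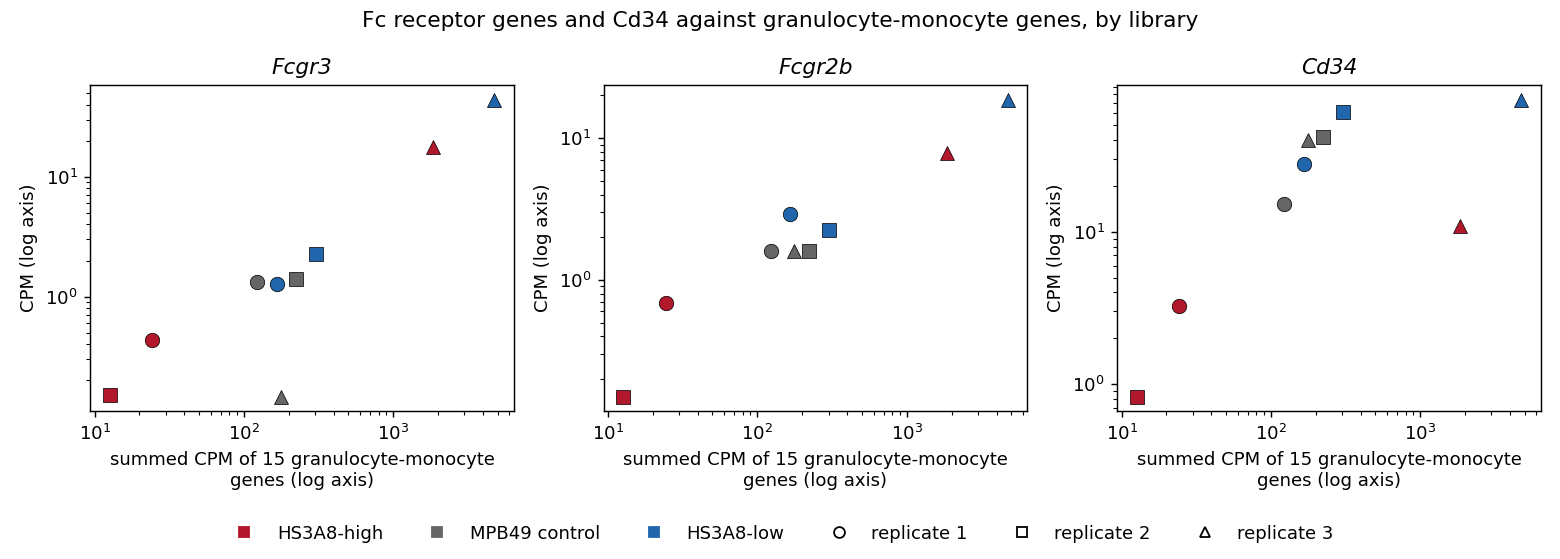
CPM of Fcgr3, Fcgr2b and Cd34 (y axes, log scale) against the summed CPM of 15 granulocyte-monocyte genes (x axes, log scale), with 1 point per library, coloured by group and shaped by replicate number. The replicate 3 libraries of both fractions, at 1851 and 4757 CPM on the x axis, have the most Fcgr3 and Fcgr2b, while for Cd34 HS3A8-high replicate 3 lies at 11.0 CPM, below the control.

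The plot of the Fc receptor genes against granulocyte-monocyte genes sets these values side by side. The sum was 24.3, 12.6 and 1851 CPM in HS3A8-high replicates 1, 2 and 3, 166, 302 and 4757 CPM in HS3A8-low and 123, 224 and 177 CPM in the control. Mpo, the myeloperoxidase of granulocyte precursors, was at 712 CPM in HS3A8-high replicate 3 and 5.96 and 2.48 CPM in the other HS3A8-high libraries. None of the 12 tested genes of the list passed the main test, and with the block 7 passed as higher in HS3A8-low, against 8.27% of all genes. Per kilobase of exon, Fcgr3 was 7.60 and 7.84 times Fcgr2b in replicate 3 of HS3A8-high and HS3A8-low, 1.47 to 3.34 times in the other libraries of both fractions, and 0.303 to 2.94 times in the control. The ratio rests on few reads in HS3A8-high replicate 2 (2 of each gene) and control replicate 3 (2 of Fcgr3 and 22 of Fcgr2b). Fcer1g, the signalling chain of FcγRIII, was at 30.5 and 99.9 CPM in replicate 3 of HS3A8-high and HS3A8-low, at 1.19 and 0.827 CPM in the other HS3A8-high libraries and at 18.9 and 17.9 CPM in the other HS3A8-low libraries. The part of granulocyte-monocyte cells in the Fc receptor values was not tested.

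Eng (chr2:32646595-32682669, plus strand) encodes endoglin, CD105, a co-receptor for TGF-beta family ligands. It was at 134, 123 and 121 CPM in HS3A8-high, at 125, 116 and 85.8 CPM in HS3A8-low and at 79.2, 116 and 116 CPM in the control. Its range was the narrowest of the members, 1.69-fold from the lowest to the highest library. The fitted log2 ratio of HS3A8-high to HS3A8-low was 0.18 (SE 0.15, 95% interval -0.18 to 0.54, adjusted p = 0.571 by edgeR, 0.264 with the replicate block). Slamf1 and Eng are the pair that divides pre-MegE from CFU-E cells. Slamf1 was at 0.226 to 2.26 CPM in HS3A8-high and 7.73 to 13.0 CPM in HS3A8-low. Eng was at 126 ± 6.96 CPM (SD, n = 3) in HS3A8-high and 109 ± 20.6 CPM in HS3A8-low. Whether the fold changes of Slamf1 and Eng differ was not tested.

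Procr (chr2:155751117-155755471, plus strand) encodes EPCR, the endothelial protein C receptor, a marker of stem cells. It had no read in any HS3A8-high library, 6, 8 and 5 reads in HS3A8-low and 3, 9 and 8 reads in the control. Over the group, a count of 0 allows up to 0.0673 CPM in HS3A8-high. The pooled level was 0.461 CPM in HS3A8-low (19 reads, exact 95% Poisson interval 0.278 to 0.721 CPM) and 0.485 CPM in the control (20 reads, 0.296 to 0.749 CPM). The upper end of the same kind of interval for HS3A8-high was 0.0828 CPM, below both of these lower ends. Such intervals cover counting error only and leave out variation between mice. The counts of Procr were under the filter of the main test. With no filter the adjusted p against HS3A8-low was 0.122 by edgeR, and it was 0.0978 by DESeq2.

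**Figure D3:**
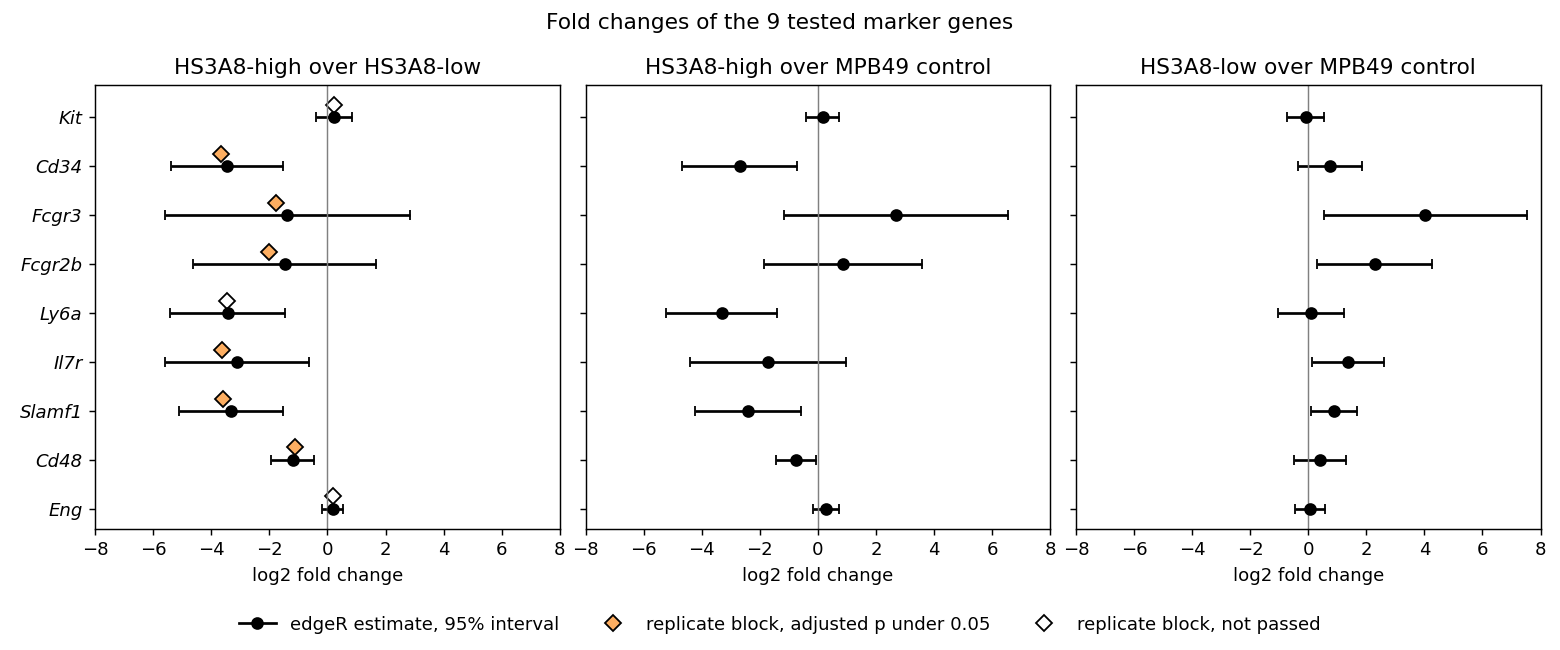
Log2 fold changes (x axis) of the 9 tested marker genes (y axis) in the 3 comparisons. Points with bars are edgeR estimates with 95% intervals, and diamonds in the left panel are estimates with the replicate block, filled where the adjusted p was under 0.05. Intervals for Cd34, Ly6a, Il7r, Slamf1 and Cd48 lie below 0 in the left panel, and those for Fcgr3 and Fcgr2b are the widest.

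The plot of fold changes also covers the comparisons with the MPB49 control, which asked on which side of undivided MEPs each fraction lay. Both comparisons use the same 3 control libraries. Between HS3A8-high and the control, edgeR passed 0 of 9 members and 0.0174% of all genes. An unadjusted p under 0.05 was reached by Cd34, Ly6a, Slamf1 and Cd48, all higher in the control, a direction in which 4.2% of all genes did so. DESeq2 passed 2 members, Cd34 (log2 fold change -2.68, adjusted p = 0.0273) and Ly6a (-3.35, adjusted p = 0.0247), and 1.06% of all genes as higher in the control. The groups did not overlap for 4 of the 9 tested members, against 14.2% of all genes, with Cd34, Ly6a and Slamf1 higher in the control and Eng higher in HS3A8-high. For Eng the log2 fold change was 0.29 (SE 0.19, adjusted p = 0.733 by edgeR) and 0.13 without control replicate 1. For Cd48 it was -0.75, and -0.40 without that library.

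Between HS3A8-low and the control, edgeR passed 0 of 9 members and 0 of 11878 genes, and DESeq2 passed 0 members and 0.672% of all genes. An unadjusted p under 0.05 was reached by Fcgr3, Fcgr2b, Il7r and Slamf1, all higher in HS3A8-low, a direction in which 5.24% of all genes did so. Fcgr2b, Il7r and Slamf1 did not overlap between the groups and were higher in HS3A8-low, against 7.85% of all genes. The log2 fold change of HS3A8-low over the control was 1.37 for Il7r (SE 0.53, adjusted p = 0.815 by edgeR) and 0.89 for Slamf1 (SE 0.34, adjusted p = 0.806). For Ly6a it was 0.10, with a 95% interval from -1.04 to 1.24. Set against the mean of both fractions, the control level was 1.10 times for Cd34, 0.985 times for Slamf1, 1.05 times for Cd48 and 0.975 times for Kit. It was further off for the other members, at 2.16 times for Procr, 1.71 for Ly6a, 0.882 for Eng, 0.697 for Il7r, 0.296 for Fcgr2b and 0.0872 for Fcgr3. For Procr, Eng, Fcgr2b and Fcgr3 the control mean did not lie between the means of the fractions. For Fcgr3 the mean of either fraction rests on its replicate 3. Control replicates 1 and 2, at 1.32 and 1.40 CPM, were above HS3A8-high replicates 1 and 2, at 0.439 and 0.150 CPM. Control replicate 3, at 0.147 CPM, was below both of these HS3A8-high libraries. Without HS3A8-high replicate 3 the log2 fold change of HS3A8-high over the control was -1.62. No control library had more than 1.40 CPM of Fcgr3 or 1.61 CPM of Fcgr2b.

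The members spanned a wide range of RNA levels. Ordered by the median CPM per kilobase of exon over the 9 libraries, Kit was highest at 64.6, followed by Cd48 at 40.2, Eng at 28.6, Cd34 at 3.85, Ly6a at 1.32, Slamf1 at 0.777, Fcgr3 at 0.758, Il7r at 0.588, Fcgr2b at 0.279 and Procr at 0.173. The ranges over libraries of Kit (42.9 to 89.4 CPM per kilobase) and Cd48 (22.5 to 92.9) overlapped, as did those of Cd48 and Eng (19.6 to 33.1). Eng was above Cd34 (0.114 to 10.1) in every library. From Cd34 down to Procr each neighbouring pair overlapped. Of the genes for antigens that the labels name in the gate, Kit was above Cd34, Fcgr3 (0.0845 to 25.3) and Fcgr2b (0.0260 to 3.22) in every library.

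Across the 9 libraries, which share 3 groups and their replicate structure, certain members varied alike. Pearson's r of log2 CPM was 0.962 for Il7r with Slamf1, 0.927 for Cd34 with Ly6a and 0.909 for Fcgr3 with Fcgr2b. Kit went with Eng (r = 0.818) and against Cd48 (r = -0.824), and Cd48 went against Eng (r = -0.866). Among the 9348 genes whose mean reached 5 CPM, the closest to Cd34 were Adgrl4 (r = 0.983), Tmem176b (0.972) and Cd27 (0.961). The closest to Slamf1 were Eya2 (0.983), Mmrn1 (0.982) and Kcna3 (0.963), and to Fcgr3 Ly6c2 (0.967), Ifi209 (0.963) and Tifab (0.959). The closest to Cd48 were Cst3 (0.979), Itm2b (0.971) and Tmsb10 (0.968), to Kit Nsd3 (0.986), Prrc2c (0.972) and Herc2 (0.966), and to Eng Thra (0.986), Map3k20 (0.984) and Maz (0.984). These are the highest of many values over few libraries and are given as a description.

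**Figure D4:**
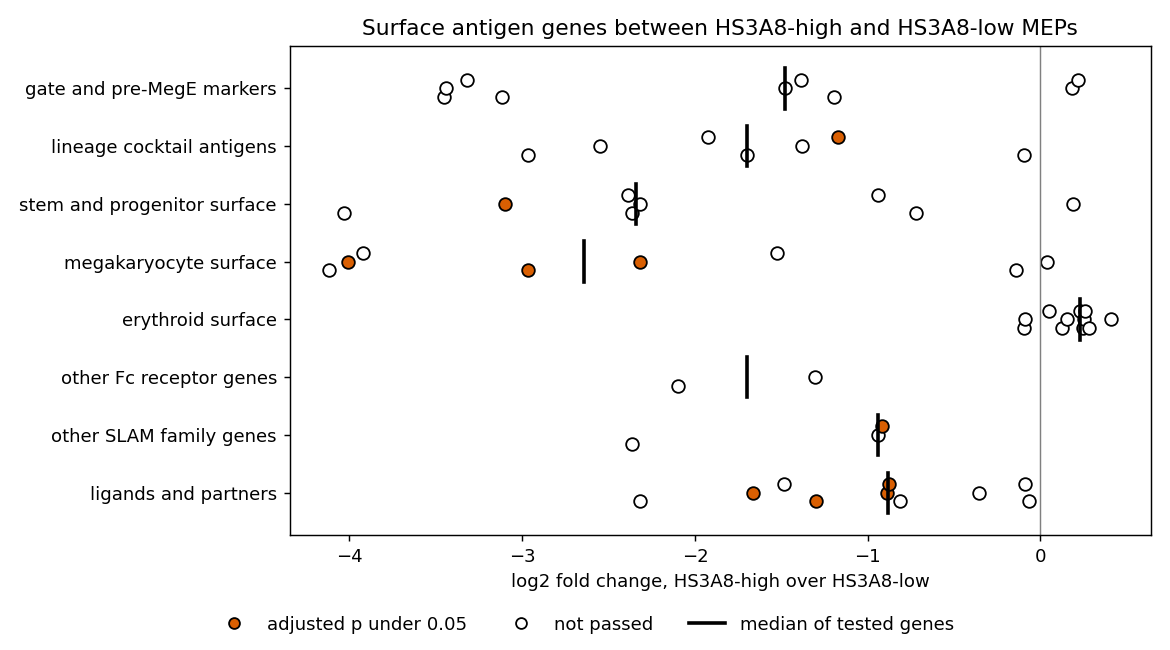
Log2 fold change of HS3A8-high over HS3A8-low (x axis) for each tested gene of 8 lists of surface antigens and partners (y axis). Filled points passed at an adjusted p under 0.05, open points did not, and the bar is the median of the tested genes. The medians of the gate and pre-MegE markers (-1.48) and megakaryocyte antigens (-2.64) lie left of 0 and that of the erythroid antigens (0.23) right of it.

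The plot of antigen lists sets the members beside related surface genes. As the lists were chosen with earlier results of these data known, their pass counts are descriptions. Medians of log2 fold change of HS3A8-high over HS3A8-low were -1.48 over the 9 tested members and -0.03 over all genes tested. Among 8 tested stem and progenitor antigens the median was -2.34, and 1 passed as higher in HS3A8-low, as did 3.21% of all genes. This was Cd27, a TNF receptor family member, at 1.76, 1.20 and 5.95 CPM in HS3A8-high and 20.9, 30.6 and 23.8 CPM in HS3A8-low (adjusted p = 0.0391 by edgeR). Flt3, the cytokine receptor of multipotent progenitors, was at -2.39 (adjusted p = 0.105 by edgeR), Itga6 -0.72 (adjusted p = 0.282) and the adhesion receptor gene Cd44 0.19 (adjusted p = 0.522).

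Of 8 tested megakaryocyte antigens, 3 passed as higher in HS3A8-low, against 3.21% of all genes, and the median was -2.64. Itga2b, which encodes CD41 and completes the pre-MegE scheme, was at 7.97, 4.29 and 5.09 CPM in HS3A8-high, 125, 82.9 and 67.5 CPM in HS3A8-low and 74.2, 44.6 and 48.1 CPM in the control. Its log2 fold change of -4.01 passed (SE 0.34, adjusted p = 0.00712 by edgeR), as did those of the tetraspanin Cd9 (-2.32, adjusted p = 0.00712) and of Treml1 (-2.97, adjusted p = 0.0196). Gp5, a platelet glycoprotein, was at -0.14 (adjusted p = 0.737 by edgeR). Among the 3 antigens of the pre-MegE scheme, Itga2b passed, Slamf1 passed only in part of the settings and Eng in none of those run.

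Of 11 tested erythroid antigens 0 passed the main test, 9 had estimates above 0, and the median was 0.23. The most abundant were the water channel Aqp1 (log2 fold change 0.26, adjusted p = 0.428 by edgeR), Ermap (0.41, adjusted p = 0.0680) and Cd24a (0.16, adjusted p = 0.338), and Ermap passed with the replicate block as higher in HS3A8-high (adjusted p = 0.0173).

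The lineage cocktail used for depletion included antibodies to CD3, CD4, CD8, B220, Gr-1 and CD11b. Of 13 genes for antigens of the cocktail 7 were tested and 1 passed as higher in HS3A8-low, against 3.21% of all genes. This was Ptprc, which encodes CD45 and its B220 form, with a log2 fold change of -1.17 (adjusted p = 0.0253 by edgeR). It was at 39.9, 29.0 and 45.0 CPM in HS3A8-high and at 81.8, 91.1 and 78.8 CPM in HS3A8-low. A count per gene does not tell B220 from other CD45 forms. Ly6c2, one of the Gr-1 antigen genes, was at 200 and 505 CPM in replicate 3 of HS3A8-high and HS3A8-low and at most 6.82 CPM in the other libraries (adjusted p = 0.776 by edgeR).

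Of 3 tested SLAM family genes beside the members, 1 passed as higher in HS3A8-low, against 3.21% of all genes. This was Cd84, with a log2 fold change of -0.91 (SE 0.15, adjusted p = 0.0283 by edgeR). It was at 16.4, 15.9 and 17.2 CPM in HS3A8-high, 31.4, 33.4 and 26.9 CPM in HS3A8-low and 41.1, 21.2 and 18.3 CPM in the control. Ly9 (-0.94, adjusted p = 0.239 by edgeR) and Cd244a (-2.37, adjusted p = 0.283) did not pass. Of the 5 other Fc receptor genes 2 were tested and 0 passed the main test, and Fcer1g passed with the replicate block (-2.95, adjusted p = 0.0223).

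Among 10 tested ligands, co-receptors and signalling partners, 4 passed as higher in HS3A8-low, against 3.21% of all genes, and the median was -0.88. These included 3 genes of IL-7 family receptor signalling, the common gamma chain Il2rg (-0.89, adjusted p = 0.0417 by edgeR), the kinase Jak3 (-0.88, adjusted p = 0.0333) and Crlf2 (-1.30, adjusted p = 0.0451), which encodes the receptor chain that pairs with the Il7r product to bind TSLP. The fourth, F2r, encodes the thrombin receptor PAR1 and was at 65.7, 46.3 and 37.4 CPM in HS3A8-high and 206, 148 and 111 CPM in HS3A8-low (-1.66, adjusted p = 0.0336 by edgeR). Jak1 (-0.07, adjusted p = 0.756 by edgeR) and the phosphatase gene Inpp5d, which acts below FcγRIIB (-0.09, adjusted p = 0.794), did not pass. Il2rg (SE 0.17) and Jak3 (SE 0.15) passed the main test and Il7r, with a log2 fold change of -3.11 (SE 1.05), did not. With the replicate block all 3 passed as higher in HS3A8-low (adjusted p = 0.0220, 0.0221 and 0.0366 by edgeR). Whether their fold changes differ was not tested.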

How the data were processed

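RNA of sorted mouse MEPs was measured by low-input bulk RNA-seq in 9 libraries, 3 per group. The authors deposited raw read counts per gene, as whole numbers without normalization. Per the labels, reads were processed with STAR 2.5 and HTSeq 0.6.1 on mm10. The annotation release and the strand setting were not given in the sources used here, so reads of overlapping genes on opposite strands cannot be told apart. Identifiers were matched to GENCODE M21 symbols on GRCm38 (34490 of 35275). Replicates are separate mice per the study's figure legend, and whether both fractions of a number came from 1 mouse is not stated.

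Counts were tested in R 4.3.3 with the quasi-likelihood test of edgeR 4.0.16 (TMM, filterByExpr, Benjamini-Hochberg adjustment, threshold 0.05), fitted on the 2 groups of each comparison without a block. The test was also run on simulated counts of independent libraries, which cannot show how it handles paired fractions. Alternatives were DESeq2 1.42.0, its size factors, no filter, a mean count of at least 10, 1 fit of 9 libraries, the replicate block and each library left out. Over 12108 genes, r of the deviations from the group mean was 0.325 to 0.509 for same-numbered libraries of the fractions and -0.469 to 0.123 for the others. The numbers were therefore taken to pair the fractions, which the replicate block uses and the main test does not. An SE is the log2 fold change over the root of the test statistic. Correlations used log2 CPM with a prior count of 2.

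The members and gene lists were chosen with earlier results of these data known. Named in the text are the members, listed genes that passed between the fractions or are among the 3 most abundant of their list, and the 3 genes most alike to each member with a mean of at least 5 CPM. Genes named outside this rule, such as Kitl, Mpo, Cdh5, Cd3e and Car1, were named after their values were seen. Sh2d1b1 was not analysed here. Single values of certain listed genes are not reported here.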

Additional observations from a re-analysis of the deposited data

How the results depend on the processing

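Between HS3A8-high and HS3A8-low, 0 members and 451 genes passed the main test. DESeq2 gave 5 members and 1224 genes, no count filter 2 members and 455 genes, all 9 libraries in 1 fit 1 member and 325 genes, and the replicate block 6 members and 1367 genes. Leaving out 1 library gave 0 to 1 members (Cd34 when HS3A8-high replicate 3 was left out, Slamf1 when HS3A8-high replicate 1 was) and 0 to 439 genes. These were 42 and 53 genes when replicates 1 and 2 of HS3A8-high were left out in turn, and 56, 0 and 244 genes when replicates 1, 2 and 3 of HS3A8-low were. Without replicate 3 of both fractions, chosen after seeing the data, there were 2 members and 748 genes. HS3A8-high against the control gave 0 members and 2 genes, with 2 members and 143 genes by DESeq2, 9 genes with no filter, 32 in 1 fit of 9 libraries, 0 with the replicate block and 0 to 5 with a library left out (5 without control replicate 1). HS3A8-low against the control gave 0 genes, and 93 by DESeq2. The causes were not tested.

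Some log2 fold changes turned in sign when 1 library was left out. HS3A8-high over HS3A8-low ran from -5.66 (without HS3A8-high replicate 3) to 1.76 (without HS3A8-low replicate 3) for Fcgr3 and, with the same libraries, from -4.17 to 0.12 for Fcgr2b. HS3A8-high over the control ran from -1.62 to 3.25 for Fcgr3 and from -1.87 to 1.39 for Fcgr2b, lowest without HS3A8-high replicate 3, and from -0.023 to 0.35 for Kit. With the replicate block Fcgr2b was at -0.54. HS3A8-low over the control ran from -0.34 to 0.12 for Kit, from -0.17 to 0.39 for Ly6a, from -0.010 to 0.76 for Cd48 and from -0.088 to 0.23 for Eng. Same-numbered libraries of the control and either fraction did not deviate together (r from -0.345 to 0.0312), and the block changed no call of a member there. In HS3A8-high libraries Ly6a had at most 5 reads and Procr none, so depth limits what their values show.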
